A study of Mus musculus with 6 samples.

Results

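The oxidative stress and antioxidant genes described here were 33 named genes of the cellular defence against peroxides and other reactive oxygen species. They were measured by ATAC-seq, which inserts adapters into open chromatin with the transposase Tn5, so that more reads in a region stand for more accessible DNA. A gene was represented by rows of the deposited count matrix that lay within 1 kb of either end of its span. Where a gene had several such rows, the row with the highest mean count over the 6 libraries was taken as its main region. By this rule 26 of the 33 genes had a region, in 28 of the 24605 rows of the matrix, while the matrix as a whole had 9419 rows at ends of protein-coding genes. For Mafg, Osgin1, Slc7a11, Txnrd1, Txn2, Gpx4 and Fth1 no row lay within that distance, and 0 of the 6 libraries' peak lists held a peak there. Their gene ends are not analysed here.

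Wild-type mice were the source of the CD8+ T cells in all 6 libraries. These cytotoxic lymphocytes attack cells that carry a virus or are malignant. The labels name pancreas, spleen and lymph nodes as the organs of origin. For 3 libraries the cells were given 100 µM palmitate, a saturated fatty acid, in T cell medium for 48 hours, and the other 3 carry control as their title and treatment characteristic. The treatment protocol text, identical for all 6 libraries, names palmitate, so the groups here follow the titles and characteristics. The carrier given to control cells is not stated in the sources used here. The title of the series concerns the response of CD8+ T cells to tumours and their mitochondrial metabolism under palmitate. Each library was made from 50000 sorted cells. Nothing in the labels ties a replicate number to an animal or a culture. Each p-value therefore reflects the scatter among these 6 libraries, and that scatter may be technical.

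Cells sense oxidants through the transcription factor NRF2, which the gene Nfe2l2 encodes. KEAP1 holds NRF2 for degradation until oxidants modify it, after which NRF2 pairs with a small MAF protein and binds the antioxidant response element, a short DNA motif near genes for glutathione synthesis, thioredoxin recycling and haem breakdown. BACH1 competes for the same motif as a repressor. In activated T cells these systems limit oxidants that arise from mitochondrial respiration, and glutathione is needed for growth after activation.

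The ends of 7 antioxidant genes were more accessible with palmitate, and none was less accessible at the threshold used. The 7 were the regulators Nfe2l2, Nfe2l1 and Bach1, the 2 subunit genes of the enzyme that starts glutathione synthesis (Gclc and Gclm), the mitochondrial superoxide dismutase gene Sod2 and the ferritin light chain gene Ftl1. Their log2 fold changes lay between 0.24 and 0.48. With TMM scaling, the edgeR quasi-likelihood test with Benjamini-Hochberg adjusted p-values over all 24316 tested regions (threshold 0.05) passed these 7 of 26 as higher and 0 as lower, and 19 did not pass. At an unadjusted p below 0.05, 9 were higher and 1, Nqo1, was lower. The share over all gene ends at that unadjusted threshold is not given here, so this count has no background beside it. With adjusted p-values, the test called 11.9% of all regions higher and 12.7% lower. Of the 8737 main regions of all genes' ends it called 26.4% higher and 1.92% lower. The share among antioxidant genes was thus near that of gene ends in general. The median log2 fold change was 0.17 over the antioxidant genes and 0.15 over all gene-end main regions. In bulk libraries, more cells with an open region and a more open region in each cell cannot be told apart.

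**Figure D1:**
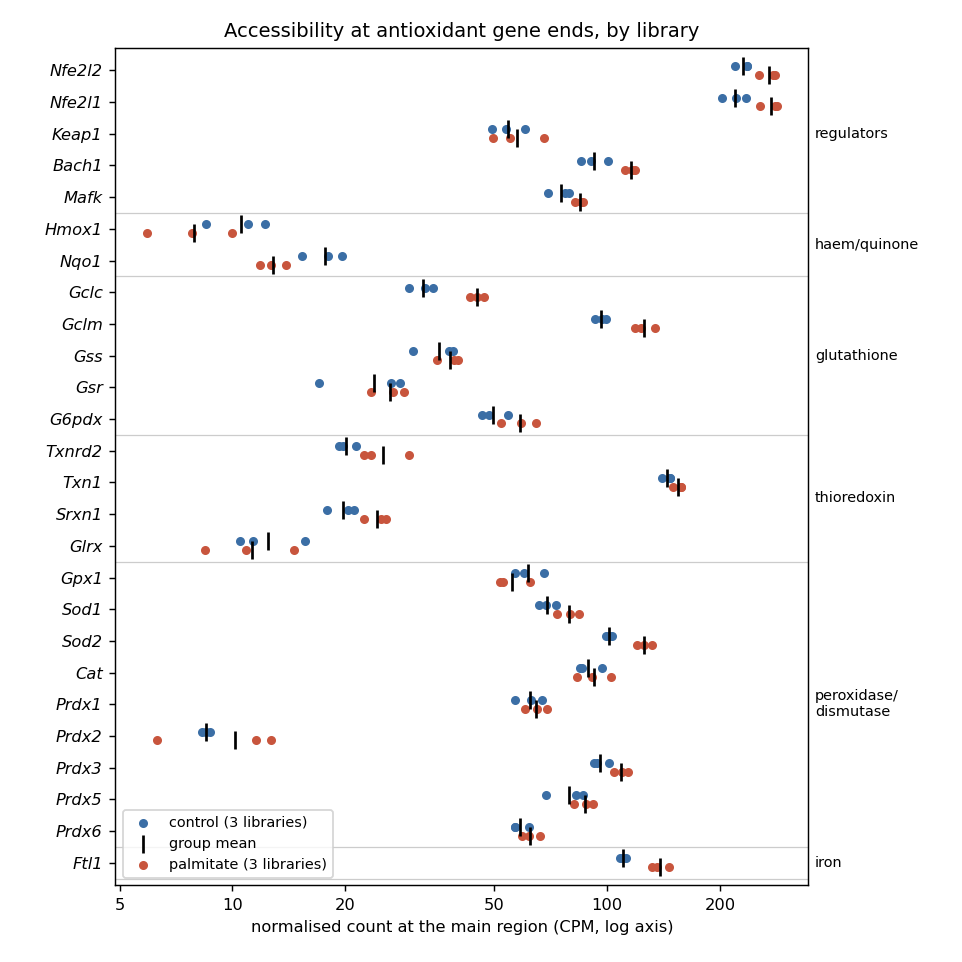
Normalised counts (CPM, log axis) at the main region of each of the 26 antioxidant genes, in the order of their roles. Points are the 3 control (blue) and 3 palmitate (red) libraries and the black ticks are group means. All palmitate libraries lie above all control libraries at 13 genes, below them at Nqo1, and the groups overlap at 12.

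Sequences of the 250 bases upstream of the annotated start were taken from RefSeq (GRCm38.p6, the assembly of mm10) to show which of these starts carry the letters of an antioxidant response element. The start of 22 of the 26 genes was listed and lay in the main region. The element's core was searched as TGACNNNGC on both strands. It was found in 6 of the 22 (Nfe2l2, Mafk, Gclm, G6pdx, Sod1 and Prdx1), against 10.2% of all 32807 listed promoters and 12.6% of the 9918 whose start lies in a region of the matrix. The related AP-1 motif TGANTCA was found in 3 of the 22 (Srxn1, Glrx and Prdx1), against 3.76% of promoters whose start lies in a region. Its letters can lie inside a match to the element, as they do at Prdx1. A GC box, GGGCGG on either strand, was found in 18 of the 22, against 64.5%. Such matches describe the letters only, and an element with other letters or outside these 250 bases would not be found. The sequences below are those of Nfe2l2 and Gclm, which were called more accessible and hold a match, of an inner start of Nfe2l1, where the change was large and no match was found, of an inner start of Txnrd1, and of Prdx1, which hold a match and were not called. Capitals mark the match, and each runs 5′ to 3′ in the gene's direction.
Nfe2l2 (chr2:75704664-75704913, minus strand): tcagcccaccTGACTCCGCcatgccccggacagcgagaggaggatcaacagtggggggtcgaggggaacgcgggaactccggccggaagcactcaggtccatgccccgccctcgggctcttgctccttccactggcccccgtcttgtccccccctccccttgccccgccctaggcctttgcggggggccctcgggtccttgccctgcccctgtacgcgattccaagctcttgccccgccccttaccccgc
Gclm (chr3:122245307-122245556, plus strand): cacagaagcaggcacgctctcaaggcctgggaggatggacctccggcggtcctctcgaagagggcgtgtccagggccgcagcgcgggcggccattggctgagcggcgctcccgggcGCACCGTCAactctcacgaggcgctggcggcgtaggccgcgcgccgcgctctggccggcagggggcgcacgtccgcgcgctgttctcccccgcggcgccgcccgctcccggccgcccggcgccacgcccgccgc
Nfe2l1 inner start (chr11:96824128-96824377, minus strand): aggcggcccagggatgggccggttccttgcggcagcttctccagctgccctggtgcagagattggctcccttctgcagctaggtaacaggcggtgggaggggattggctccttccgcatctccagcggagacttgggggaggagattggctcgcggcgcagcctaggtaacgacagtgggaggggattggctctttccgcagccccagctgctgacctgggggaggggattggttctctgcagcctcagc
Txnrd1 inner start (chr10:82858956-82859205, plus strand): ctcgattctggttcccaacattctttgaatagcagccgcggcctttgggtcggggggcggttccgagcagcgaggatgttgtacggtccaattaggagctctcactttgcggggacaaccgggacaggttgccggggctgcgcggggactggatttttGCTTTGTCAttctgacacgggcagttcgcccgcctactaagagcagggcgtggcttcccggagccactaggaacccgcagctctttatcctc
Prdx1 (chr4:116685349-116685598, plus strand): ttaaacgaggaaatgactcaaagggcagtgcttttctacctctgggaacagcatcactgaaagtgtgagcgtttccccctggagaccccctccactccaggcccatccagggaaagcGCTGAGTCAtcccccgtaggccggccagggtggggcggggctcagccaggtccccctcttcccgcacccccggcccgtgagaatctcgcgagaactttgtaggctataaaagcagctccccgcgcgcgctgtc
The match begins 240 bases before the start in Nfe2l2, 134 in Gclm, 92 in Txnrd1 and 133 in Prdx1. Of the 6 genes with a match, Nfe2l2 and Gclm were called higher and the other 4 were not.

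Among the regulators, 3 of the 5 with a region were called higher. Over gene-end main regions of like strength, the mean share called higher was 53.5%. The Nfe2l2 region (chr2:75703967-75705035, over the gene's start) had 236, 219 and 236 CPM (counts per 1000000 counts of normalised library size) in controls 1 to 3 and 254, 281 and 277 CPM in palmitate libraries 1 to 3. Every palmitate library was above every control, and the log2 fold change was 0.24 ± 0.064 (SE, edgeR adjusted p = 0.00740). Nfe2l1, which encodes NRF1, a membrane-bound relative of NRF2 that also controls proteasome genes, had 235, 203 and 221 CPM in controls and 283, 281 and 255 CPM with palmitate at its start (chr11:96829478-96830530). Again no palmitate library fell among the controls, with a log2 fold change of 0.32 ± 0.067 (edgeR adjusted p = 0.000778). Bach1 had 85.0, 100.5 and 90.4 CPM in controls and 112, 119 and 116 CPM with palmitate (chr16:87698607-87699167). With TMM scaling the repressor's region rose, as those of the 2 activators did, with a log2 fold change of 0.32 ± 0.084 (edgeR adjusted p = 0.00498). With offsets that follow region strength, given below, 0 of the 5 passed.

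Keap1 and Mafk did not pass. The Keap1 libraries overlapped, from 49.2 to 60.2 CPM in controls and from 49.5 to 67.6 CPM with palmitate (log2 fold change 0.08 ± 0.12, edgeR adjusted p = 0.681). Mafk, a small MAF partner of both NRF2 and BACH1, ranged from 69.5 to 79.2 CPM in controls and from 82.0 to 86.3 CPM with palmitate. Its groups did not overlap, but the change of 0.17 ± 0.092 missed the threshold (edgeR adjusted p = 0.188).

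Hmox1 and Nqo1, classic NRF2 targets, were weakly accessible and had negative fold changes that did not pass. Hmox1, the haem oxygenase that releases iron and biliverdin from haem, had 12.2, 10.98 and 8.50 CPM in controls and 5.91, 7.81 and 9.97 CPM with palmitate (chr8:75093501-75093814). The groups overlapped (log2 fold change -0.40 ± 0.28, edgeR adjusted p = 0.304), and no peak was listed there in palmitate libraries 1 and 3. Nqo1, a quinone reductase widely used as a readout of NRF2 activity, had 19.6, 15.3 and 18.0 CPM in controls and 11.8, 13.9 and 12.7 CPM with palmitate (chr8:107403051-107403596). Among the 26 it was the only gene with all palmitate libraries below all controls, against 5.8% of gene-end main regions, and its change of -0.45 ± 0.22 missed the threshold (edgeR adjusted p = 0.127).

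In the glutathione group, the ends of both subunit genes of glutamate-cysteine ligase rose and those of the later enzymes did not pass. Gclc, the catalytic subunit, had 32.7, 34.3 and 29.6 CPM in controls and 43.0, 46.9 and 44.9 CPM with palmitate (chr9:77754388-77754657, at an end of the gene). The groups were well apart, and its log2 fold change of 0.48 ± 0.13 was the highest among the 26 genes (edgeR adjusted p = 0.00794). Gclm, the modifier subunit, had 96.7, 92.8 and 98.9 CPM in controls and 123, 134 and 118 CPM with palmitate (chr3:122245301-122245852, over the start). No library crossed between the groups, and the change was 0.39 ± 0.081 (edgeR adjusted p = 0.000811).

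Gss, which joins glycine in the last step of glutathione synthesis, overlapped between groups with a log2 fold change of 0.10 ± 0.14 (edgeR adjusted p = 0.630). Gsr, the reductase that regenerates glutathione, ranged from 17.0 to 27.9 CPM in controls and from 23.4 to 28.8 CPM with palmitate (0.12 ± 0.18, edgeR adjusted p = 0.673). The low end of the controls was control 1, where no peak was listed at Gsr. G6pdx, the pentose phosphate enzyme that supplies NADPH for that reduction, ranged from 46.2 to 54.2 CPM in controls and from 52.2 to 64.6 CPM with palmitate (0.24 ± 0.12, edgeR adjusted p = 0.136).

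None of the 4 thioredoxin-system genes with a region was called by edgeR, and none had an unadjusted p below 0.05 with TMM scaling. Txn1, thioredoxin itself, was among the most accessible, with 147, 140 and 147 CPM in controls and 149, 158 and 157 CPM with palmitate. These groups barely separated, and the change of 0.10 ± 0.072 did not pass (edgeR adjusted p = 0.341). Txnrd2, the mitochondrial thioredoxin reductase, ranged from 19.3 to 21.4 CPM in controls and from 22.5 to 29.6 CPM with palmitate (0.33 ± 0.18, edgeR adjusted p = 0.179). Srxn1, the sulfiredoxin that repairs overoxidised peroxiredoxins, ranged from 17.9 to 21.1 CPM in controls and from 22.4 to 25.7 CPM with palmitate (0.29 ± 0.18, edgeR adjusted p = 0.243). In both, palmitate libraries lay above all controls without passing the test. Glrx, a glutaredoxin, overlapped at 10.5 to 15.6 CPM in controls and 8.44 to 14.6 CPM with palmitate (-0.16 ± 0.25, edgeR adjusted p = 0.694), and a peak was listed there in 3 of the 6 libraries.

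Among 9 peroxidase and dismutase genes with a region, Sod2 was the only call. Sod2, which converts superoxide in the mitochondrial matrix, had 103, 101 and 99.3 CPM in controls and 125, 120.3 and 132 CPM with palmitate (chr17:13007600-13008308, over the start). The controls were close together and all palmitate libraries were above them, with a log2 fold change of 0.31 ± 0.079 (edgeR adjusted p = 0.00402). Sod1, the cytosolic enzyme, ranged from 65.8 to 72.9 CPM in controls and from 73.4 to 83.98 CPM with palmitate, and did not pass (0.19 ± 0.096, edgeR adjusted p = 0.159). Catalase (Cat), which breaks down hydrogen peroxide in peroxisomes, overlapped at 84.3 to 96.8 CPM and 82.9 to 102 CPM (0.04 ± 0.093, edgeR adjusted p = 0.773).

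Gpx1, the abundant glutathione peroxidase, had a negative change, with 56.9 to 68.0 CPM in controls and 51.8 to 62.2 CPM with palmitate. Its groups overlapped and the change of -0.13 ± 0.11 did not pass (edgeR adjusted p = 0.405). The peroxiredoxins reduce peroxides, most of them with electrons from thioredoxin, and none of the 5 with a region passed. Prdx3, a mitochondrial member, came nearest, at 92.4 to 101 CPM in controls and 104 to 114 CPM with palmitate without overlap (0.18 ± 0.083, edgeR adjusted p = 0.106). Prdx1, Prdx5 and Prdx6 overlapped between groups with log2 fold changes of 0.07, 0.15 and 0.09. Prdx2 had 8.71, 8.32 and 8.50 CPM in controls and 6.31, 11.6 and 12.7 CPM with palmitate, so the palmitate libraries lay on both sides of the controls (0.27 ± 0.28, edgeR adjusted p = 0.521). The Prdx2 region also lies at an end of Rnaseh2a, and that of Prdx5 at ends of Esrra and Trmt112.

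Ftl1, the ferritin light chain that helps store iron in an unreactive form, had 110.2, 108 and 113 CPM in controls and 132, 146 and 136 CPM with palmitate (chr7:45459196-45460208, over the start). Every palmitate library stood above the narrow range of controls, and the change was 0.33 ± 0.077 (edgeR adjusted p = 0.00235).

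**Figure D2:**
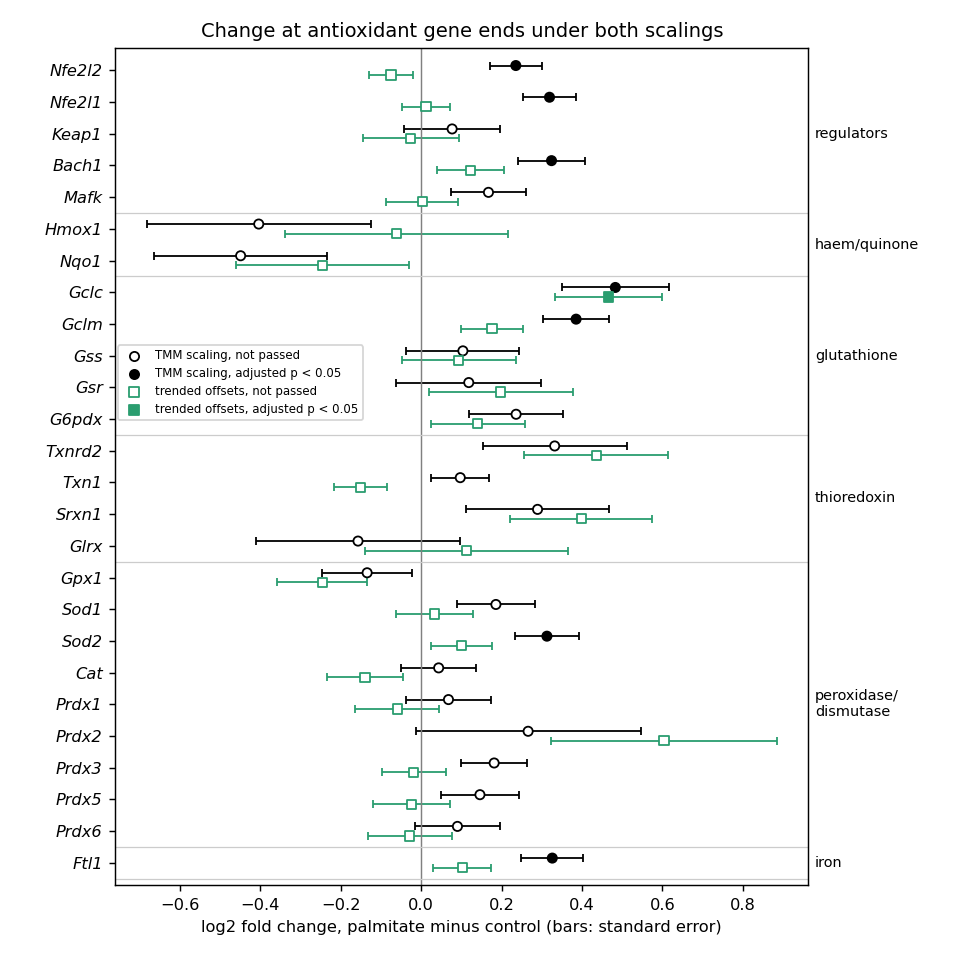
Log2 fold change (palmitate minus control) with its standard error at the main region of each antioxidant gene, with TMM scaling (black circles) and with trended offsets that follow region strength (green squares). Filled symbols passed the edgeR test after adjustment, which were 7 genes with TMM scaling and Gclc alone with trended offsets.

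The calls followed region strength. Of the 8 antioxidant genes with a mean of 100 CPM or more, 6 were called higher and all 8 had palmitate libraries above all controls. Of the 9 genes between 50 and 100 CPM 0 were called, and of the 9 genes below 50 CPM only Gclc was. Gene ends in general showed the same dependence. From the weakest to the strongest decile of the 8737 main regions, the share called higher went from 1.6% to 87.3% and the median log2 fold change from -0.18 to 0.31. Over the strength deciles in which the 26 genes lie, the mean share called higher was 28.1%, beside 7 of 26 among the antioxidant genes. Of the 26, 14 had a fold change above the median of their own decile and 12 below it. Palmitate libraries lay above all controls at 13 of the 26 genes and at 37.2% of gene-end main regions.

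Against regions of like strength, the 26 genes were spread on both sides. Gclc lay above 97.8% of its decile, in which 5.84% were called higher. Txnrd2, which was not called, lay above 91.5% of its decile and Gclm above 90.5%. The uncalled Srxn1 and Prdx2 lay above 88.0% and 86.8%, and the called Bach1, Sod2 and Ftl1 above 80.6%, 78.1% and 77.2%. Nfe2l2, although called, lay above only 24.8% of its decile, where 87.3% were called, and Nfe2l1 above 53.4%. On the low side, Gpx1 lay above 4.35% of its decile, Nqo1 above 8.35%, and Txn1 and Cat above 11.1% each. By role, the genes above the median of their decile were 2 of 5 regulators, 0 of 2 haem and quinone genes, 5 of 5 glutathione genes, 3 of 4 thioredoxin genes, 3 of 9 peroxidases and dismutases, and Ftl1. These places are descriptions and were given no test.

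**Figure D3:**
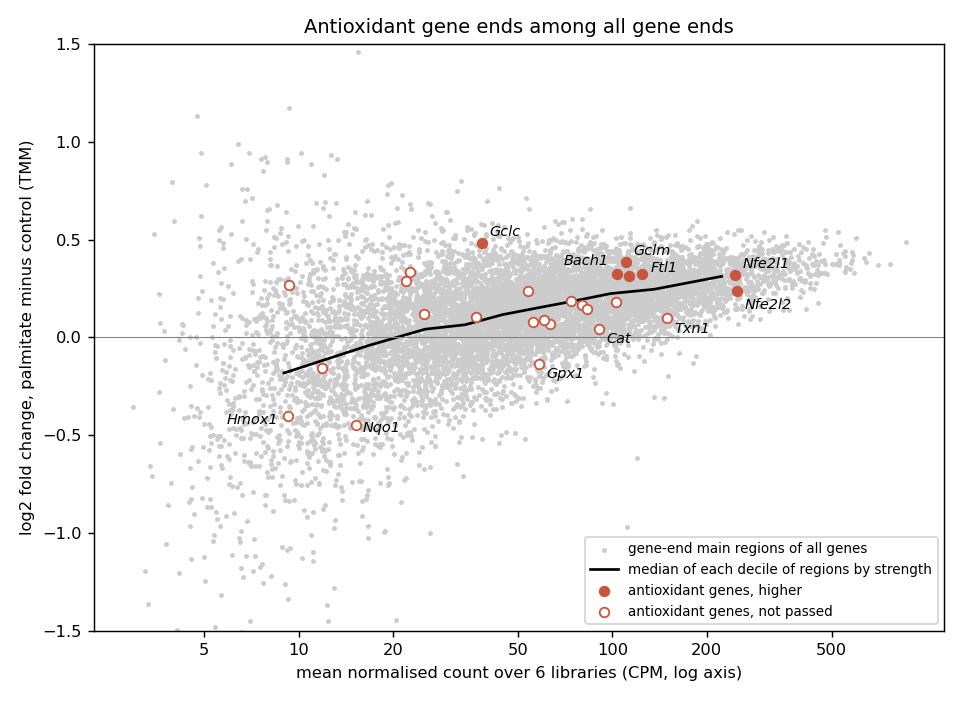
Log2 fold change (palmitate minus control, TMM) against mean normalised count (CPM, log axis) for the 8737 gene-end main regions (grey; 3 lie beyond the axis), with the 26 antioxidant genes in red and the median of each strength decile as a black line. The called genes (filled) lie at the strong end apart from Gclc, which stands well above the line, while Nqo1, Hmox1 and Gpx1 lie below it.

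With offsets fitted in each library as a smooth curve on region strength, most of the calls were lost. Gclc alone passed, with a log2 fold change of 0.47 ± 0.13 (edgeR adjusted p = 0.0333), and 0 genes were lower. This is 1 of 26, where 2.45% of gene-end main regions were called higher and 1.27% lower, so the share was again near the background. At an unadjusted p below 0.05 with these offsets, 5 genes were higher and 2, Txn1 and Gpx1, were lower. The share over all gene ends at that threshold is not given here, so these counts have no background beside them. The 5 include Txnrd2 and Srxn1, in decile 3 counted from the weakest, and Prdx2, in decile 1. Over all gene ends in those deciles the median log2 fold change with these offsets was 0.125 and 0.185. Gclm had 0.18 ± 0.077 (edgeR adjusted p = 0.174), Bach1 0.12 (0.409), Sod2 0.10 (0.475), Ftl1 0.10 (0.436) and Nfe2l1 0.01 (0.933). For Nfe2l2 the direction turned, to -0.08 ± 0.055 (edgeR adjusted p = 0.456). With trended offsets and a library left out, the Gclc log2 fold change stayed between 0.39 and 0.51. The call held without control 2 (edgeR adjusted p = 0.0186), and without any other library the adjusted p lay between 0.0550 and 0.171. With TMM scaling Gclc passed without each of the 6 libraries, the highest adjusted p being 0.0383.

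Besides the main regions, 25 rows lay at 14 of the antioxidant genes: 11 inside a gene's span, 12 outside it within 50 kb, and the second gene-end rows of Gss and Srxn1. Of these, 3 were higher and 2 lower in the edgeR test, all of them among the 11 rows inside a gene's span, where 4.3% of such rows in all genes were higher and 19.6% lower. The 3 higher rows, however, cover annotated inner starts. Gene-end main regions in the deciles of their strength were called higher at 29.5% (Nfe2l1), 62.4% (Gpx4) and 47.2% (Fth1). With trended offsets 2 of the 11 were higher and 0 lower, against 1.93% and 5.64%. None of the 12 rows outside a gene passed in either direction, where 2.67% of intergenic rows were higher and 18.4% lower. Of the 12, 1 had an unadjusted p below 0.05, a threshold for which the intergenic share is not given here. The largest called rise was at an inner start of Nfe2l1 (chr11:96823928-96824437), a row that covers 3 annotated starts. It had 58.0, 50.2 and 47.9 CPM in controls and 84.4, 68.3 and 85.9 CPM with palmitate. The lowest palmitate library was above the highest control, the change was 0.62 ± 0.11 (edgeR adjusted p = 0.000141), and it passed with trended offsets at 0.49 ± 0.11 (edgeR adjusted p = 0.00731). That call was lost without control 3 (edgeR adjusted p = 0.0833) and without palmitate 3 (0.0611). At the gene's outer start, trended offsets left 0.01, as given above.

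The inner starts of Gpx4 and Fth1, whose gene ends had no row, were also more accessible. Gpx4, the peroxidase that reduces lipid hydroperoxides in membranes, had 122, 101 and 126 CPM in controls and 149.8, 160.4 and 162 CPM with palmitate (chr10:80053248-80053753). The groups did not overlap, with a change of 0.44 ± 0.081 (edgeR adjusted p = 0.000205) and 0.20 with trended offsets (edgeR adjusted p = 0.0936). Fth1, the ferritin heavy chain, had 88.9, 77.2 and 81.6 CPM in controls and 98.5, 109 and 109 CPM with palmitate (chr19:9982411-9983219). It rose by 0.36 ± 0.088 (edgeR adjusted p = 0.00297), as did the light chain Ftl1 above, and had 0.17 with trended offsets (edgeR adjusted p = 0.226).

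The 2 regions that fell lay inside Nfe2l2 and Txnrd2, away from annotated starts. The Nfe2l2 row (chr2:75685503-75685899) had 33.1, 27.0 and 31.3 CPM in controls and 22.9, 19.4 and 23.0 CPM with palmitate, a change of -0.48 ± 0.17 (edgeR adjusted p = 0.0320). The same gene thus had a start that rose and an inner row that fell with TMM scaling. The Txnrd2 row (chr16:18459961-18460302) had 17.0, 15.97 and 10.9 CPM in controls and 8.67, 7.14 and 7.29 CPM with palmitate, a change of -0.91 ± 0.26 (edgeR adjusted p = 0.00974). Neither of these calls held with trended offsets, where the changes were -0.41 and -0.62 (edgeR adjusted p = 0.140 and 0.152), or in the DESeq2 Wald test (0.166 and 0.0635). The Nfe2l2 call was also lost without control 1, control 3 or any palmitate library (edgeR adjusted p from 0.0562 to 0.144).

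Inside Txnrd1, the cytosolic thioredoxin reductase, a weak row 79 bp from an inner start (chr10:82860420-82860696) had 7.84, 6.32 and 8.16 CPM in controls and 11.4, 12.2 and 10.7 CPM with palmitate. A peak was listed there in the 3 palmitate libraries and in 0 of the controls. Its change of 0.63 ± 0.27 missed the threshold with TMM scaling (edgeR adjusted p = 0.0802) and passed with trended offsets at 0.96 ± 0.26 (edgeR adjusted p = 0.0258), a call lost when any library was left out. In the weakest decile of gene-end main regions, at 2.96 to 12.8 CPM, 4.35% were called higher with these offsets. The median log2 fold change there was 0.185, so weak gene ends in general stayed shifted upward. The row over the inner start printed above had a log2 fold change of -0.11 ± 0.16 (edgeR adjusted p = 0.638), with overlapping groups.

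**Figure D4:**
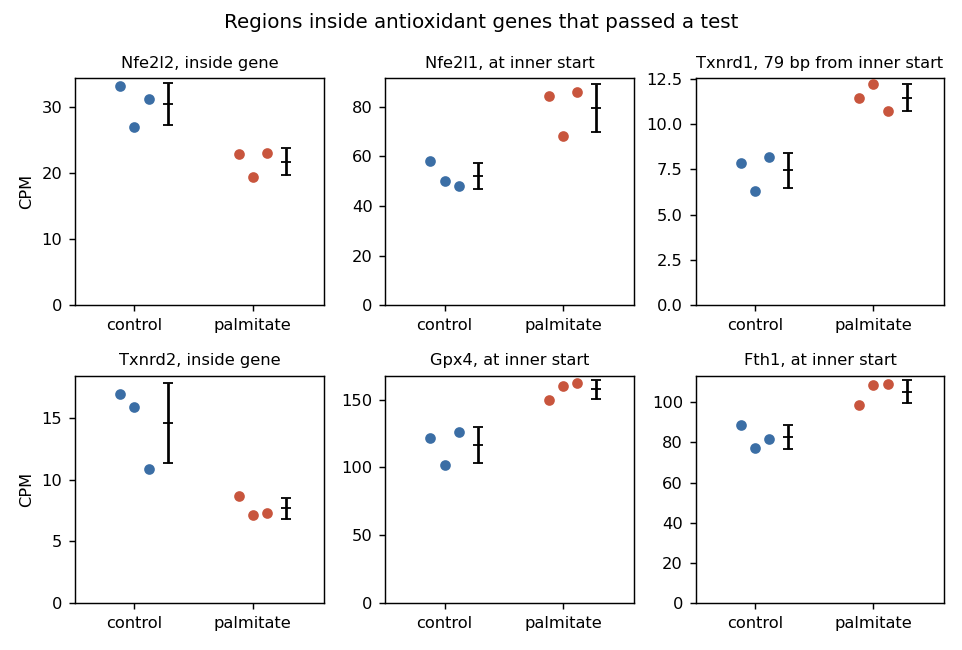
Normalised counts (CPM, axes from 0) at the 6 regions inside antioxidant genes that passed with TMM scaling or with trended offsets. Points are the 3 libraries of each group and bars give mean and SD. Nfe2l1, Txnrd1, Gpx4 and Fth1 are higher and Nfe2l2 and Txnrd2 lower with palmitate. The panels were picked because they passed on these same counts, so the lack of overlap between groups adds no further evidence.

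Further genes of the same systems, a list of 179, behaved like gene ends in general. Of the 135 with a tested main region, 36 were higher and 4 lower, beside the 26.4% and 1.92% of all gene-end main regions, and the median log2 fold change was 0.15. By system, the calls were 5 of 14 genes for regulation of NRF2, 4 of 12 for thioredoxins and glutaredoxins, 5 of 12 for NADPH supply, 4 of 13 for lipid peroxides and ferroptosis, and 3 of 9 for superoxide and metal carriers, all higher. Haem and iron handling had 7 higher and 1 lower of 13, repair of oxidised protein and DNA 3 higher and 2 lower of 17, and selenoprotein synthesis 3 higher and 1 lower of 16. Glutathione metabolism had 1 higher of 17, the amino acid transporter subunit Slc3a2, and producers of reactive oxygen had 1 higher of 12, Ero1b; both of these were named after their values were seen.

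Among the 5 with the highest called fold changes were the zinc exporter Slc30a1 (0.48 ± 0.083), the transcription factor Foxo3 (0.44 ± 0.065), the mitochondrial coactivator Ppargc1b (0.43 ± 0.14) and the iron-sulfur glutaredoxin Glrx5 (0.43 ± 0.063). The 4 lower were Eefsec, the elongation factor for selenocysteine (-0.65 ± 0.18), the DNA glycosylase Neil3 (-0.59 ± 0.18), the methionine sulfoxide reductase Msrb2 (-0.59 ± 0.22) and ferrochelatase, Fech (-0.37 ± 0.13). Leaving out 1 library at a time, Msrb2 passed only without control 3 and Fech only without control 1. Ppargc1b was lost without control 1, control 3 or palmitate 1 (edgeR adjusted p up to 0.127), Neil3 without control 3 or palmitate 1, and Eefsec without palmitate 2. With trended offsets 2 of the 135 tested genes of the list were lower and 1 was higher. This was near the 1.27% and 2.45% of all gene-end main regions. The 2 lower genes, named after their values were seen, were the glutathione-degrading enzyme Chac2 (-0.39, edgeR adjusted p = 0.0299) and the selenoprotein factor Secisbp2 (-0.30, edgeR adjusted p = 0.0317).

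Counts in regions totalled between 2219136 and 3089230 per library, with a median of 46 to 62 counts per region. Of the 26 main regions, 22 overlapped a listed peak in all 6 libraries; Hmox1, Gsr, Glrx and Prdx2 did not. All 10 marker genes of CD8+ T cells had a region, with summed levels of 385 to 432 CPM in controls and 371 to 425 CPM with palmitate, and 0 of the 6 B cell and 0 of the 7 pancreas markers had a region. Of the CD4+ T cell, NK, myeloid and erythroid markers, 6 of 16 had a region. The myeloid markers summed to 12.6 to 20.4 CPM in controls and 20.05 to 24.5 CPM with palmitate, with 4 of the 6 without a region. The NK sum, from Tyrobp alone, was 33.6 to 40.5 CPM in controls and 41.4 to 49.1 CPM with palmitate. Its groups did not overlap, but the change did not pass (0.30, edgeR adjusted p = 0.0868), and that region also lies at an end of Hcst. The erythroid markers, mostly Klf1, summed to 42.9 to 47.9 CPM in controls and 42.2 to 43.5 CPM with palmitate. The CD4+ lineage factor Zbtb7b was higher with palmitate, at 34.9 to 51.4 CPM in controls and 46.5 to 73.4 CPM with palmitate, while Cd4 and Foxp3 had no region. The myeloid integrin gene Itgam was also higher (0.91, edgeR adjusted p = 0.0151) and the T cell gene Thy1 lower (-0.55, edgeR adjusted p = 0.0108). The part of these differences in the results was not tested.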

How the data were processed

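Raw read counts in 24605 regions of 6 ATAC-seq libraries were used as the authors deposited them. Per the submitters' processing notes, the build was mm10 and the tools included MACS2 2.2.8, Bowtie2 2.5.1, edgeR 3.40.2, Trim Galore 0.6.10 and Picard 2.23.8. Neither a Tn5 offset of reads nor the way peaks were merged into regions is given in the sources used here. The 6 peak lists deposited by the authors carry a peak score and were used here for positions only.

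Counts were fitted with edgeR 4.0.16 in R 4.3.3 (quasi-likelihood F-test, two-sided, TMM, filterByExpr, which left 24316 regions, Benjamini-Hochberg over all of them at 0.05). All 28 rows at antioxidant genes passed the filter. CPM values use TMM library sizes, and the SE is the absolute log2 fold change over the square root of F. Trended offsets were a loess curve per library (span 0.3, pseudocount 0.5 reads) of log2 CPM on mean abundance. The fit was tested on simulated data. Gene spans of 21896 protein-coding genes and upstream sequences came from RefSeq tables of GRCm38.p6, which give no exons, so exon, intron and UTR are not stated. Starts were not listed for Gclc, Gsr, Hmox1 and Prdx6. Coordinates are as the matrix gives them. DESeq2 1.42.0 and limma-voom 3.58.1 were alternatives.

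All 33 members are named. Of the further list, the 5 called genes with the largest change in each direction are named, except 1 that is not reported here, and of other regions those that passed. The members, lists and rules were chosen with earlier results of these data known. Regions of like strength are deciles of gene-end main regions by mean abundance.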

Additional observations from a re-analysis of the deposited data

How the results depend on the processing

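Without each library in turn (TMM scaling), 7 antioxidant genes were higher. The same number was higher with DESeq2 size factors, upper-quartile factors, the DESeq2 Wald test, limma-voom, other count filters and autosomes only. In the settings where lower calls were counted, 0 were lower. Same-numbered control and palmitate libraries had correlations of 0.000449, -0.104 and -0.027 between their deviations from the group means. With 3 libraries per group, these values cannot tell whether the replicate numbers pair the samples. A replicate block gave 7 antioxidant genes too. Total counts left 4, losing Nfe2l2, Bach1 and Sod2, and regions in all 6 peak lists left 6, losing Nfe2l2 (adjusted p = 0.111). Total counts moved the median of all regions to -0.16, from -0.05 with TMM. Gene ends within 2.5 kb gave 9 of 29 genes, with another row for Prdx2 (0.48, edgeR adjusted p = 9.62e-05) and the row of Fth1. That row for Prdx2 lies outside the gene and nearer to an end of another gene. The share over all gene ends at this distance is not given here. Trended offsets left 1 antioxidant gene, also with the replicate block, and 0 to 1 when a library was left out. With these offsets 2 other regions passed, Nfe2l1 of the 5 called with TMM and Txnrd1, which was not. Of the further genes, 20 were higher with total counts, 20 in regions of all 6 lists and 1 with trended offsets. Lower were 2 with DESeq2 size factors, 8 with total counts, 2 with trended offsets, 0 with the DESeq2 Wald test, 7 in regions of all 6 lists and 1 to 3 without a library (2 without control 3, 1 without palmitate 1 and 2 without palmitate 3). The DESeq2 Wald test gave 3 other regions.

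Directions turned as follows. With trended offsets the log2 fold changes were -0.075 for Nfe2l2, -0.025 for Keap1, -0.15 for Txn1, 0.11 for Glrx, -0.14 for Cat, -0.059 for Prdx1, -0.018 for Prdx3, -0.024 for Prdx5 and -0.028 for Prdx6. With total counts they were -0.039 for Keap1, -0.011 for Gss, -0.018 for Txn1, -0.072 for Cat, -0.047 for Prdx1 and -0.025 for Prdx6, and with upper-quartile factors -0.013 for Cat. In regions of all 6 lists they were -0.011 for Keap1, -0.044 for Cat and -0.020 for Prdx1. With gene ends within 2.5 kb, another row of Ppargc1b had -0.023. Leaving out each library in turn gave -0.061 to 0.18 for Keap1 (negative without palmitate 2), -0.0063 to 0.20 for Gss (negative without control 2), -0.052 to 0.24 for Gsr (negative without control 1), -0.37 to 0.069 for Glrx (positive without control 3 or palmitate 3) and -0.034 to 0.12 for Cat (negative without palmitate 1). The causes were not tested. Depth limits weak regions: Hmox1 held 15 to 33 counts per library, Prdx2 16 to 34 and Glrx 22 to 46, with standard errors of 0.25 to 0.28.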

Other observations

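Of the 12 regions outside an antioxidant gene within 50 kb, which lay around 8 genes, the nearest to passing with TMM scaling was 3600 bp from Gclc (chr9:77750517-77750935), with 54.5, 54.6 and 53.7 CPM in controls and 57.2, 66.3 and 69.4 CPM with palmitate. All palmitate libraries were above the controls, as at the Gclc gene end, and the log2 fold change was 0.25 ± 0.11 (edgeR adjusted p = 0.0924), and 0.13 with trended offsets (edgeR adjusted p = 0.505). With trended offsets the nearest was a row 9528 bp from Hmox1, with 5.66, 3.33 and 4.76 CPM in controls and 3.55, 8.15 and 6.90 CPM with palmitate, so the groups overlapped (1.04 ± 0.36, edgeR adjusted p = 0.0777). A row 1611 bp outside Osgin1 had 42.8 to 51.2 CPM in controls and 41.0 to 49.6 CPM with palmitate, so the groups overlapped.

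At the second end of Srxn1 (chr2:152112030-152112349), 654 bp beyond the gene, the levels were 7.84, 9.65 and 7.82 CPM in controls and 6.70, 5.44 and 4.22 CPM with palmitate. This is the opposite order to the Srxn1 start, and a peak was listed there in the 3 control libraries alone. The row held 11 to 29 counts per library. Its log2 fold change of -0.63 ± 0.31 did not pass (edgeR adjusted p = 0.129) and was -0.20 with trended offsets (edgeR adjusted p = 0.756). The difference between the ends was not tested.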
